A study of Mus musculus with 12 samples.

Results

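Cohesin, CTCF and the proteins that load, release and anchor cohesin were followed at the level of mRNA through the activation of mouse B cells and their differentiation into plasmablasts. The members were 10 genes, Smc1a, Smc3, Rad21, Stag1, Stag2, Nipbl, Wapl, Pds5a, Pds5b and Ctcf, chosen by name and matched by their Entrez gene IDs, of 27179 gene IDs counted. All 10 were found, and all 10 passed the filter on low counts, as did 13190 genes in all. The 12 RNA-Seq libraries came from splenic B cells of male C57BL/6 mice (Pep3b background) 6 to 12 weeks of age, with 2 biological replicates for each of 6 stages. Naive B cells, with gates that included TCRβ-, B220+, IgM+ and IgDhi, received no stimulus, and the other 5 stages were cultured with 25 µg/ml lipopolysaccharide (LPS) of Salmonella typhosa, which activates B cells through Toll-like receptor signalling. The activated stages were undivided cells at 3 h, 10 h and 33 h, sorted with gates that included TCRβ- and CD69+ as cells that kept the highest level of a dye diluted by division. The last were a pair of populations sorted on day 4 of cultures with the same dose of LPS but a lower cell density. They were CD22+ CD138- cells, called expanded B cells, and CD22- CD138+ cells, called plasmablasts. Time, division and culture density therefore differ together between the 33 h cells and these populations and cannot be told apart. All of these mice and cells carried no genetic change that the labels name, and the later stages are cells grown in culture with a single stimulus.

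Cohesin is a ring of SMC1A, SMC3 and RAD21 to which either STAG1 or STAG2 binds, and it extrudes DNA into loops during interphase and holds sister chromatids together until mitosis. NIPBL loads the ring and drives extrusion, WAPL with PDS5A or PDS5B opens it again, and CTCF, a zinc finger protein that binds a defined DNA motif, is where extruding cohesin stops. In B cells loops of this kind shape gene regulation and the immunoglobulin loci. The study compared genome contacts at the same 6 stages. Its contact libraries of naive cells, expanded cells and plasmablasts were taken from an earlier study. The question put to the RNA-Seq here is which of these 10 mRNAs changed at which step.

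Total counts per library ran from 23026619 to 60585587, and the members were deeply covered, with 1304 counts in the lowest case (Pds5b) and 23112 in the highest (Smc1a). Levels are given as RPKM, that is, CPM divided by the length of the exons in kilobases, with library sizes scaled by TMM. Replicates differed most at 3 h, where the SD of the log2 ratio of the replicates over all tested genes was 0.53 against 0.30 to 0.39 at the other stages. There the median log2 ratio of replicate 1 to replicate 2 over the members was 0.37, and 3 h replicate 1 was also the library with the fewest counts. The B-cell markers Ms4a1 (257 to 1040 RPKM), Cd79a (443 to 2470 RPKM) and Cd79b (686 to 2110 RPKM) were detected in all 12 libraries. The list of 4 B-cell markers summed to 5970 and 5830 RPKM in naive cells and to 1900 and 1890 in plasmablasts, a median log2 fold change of -1.63. The 4 plasmablast markers (Sdc1, Prdm1, Xbp1, Jchain) summed to 10300 and 10100 RPKM in plasmablasts against 56.0 to 884 elsewhere.

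The naive libraries also held RNA of other blood cells. The 4 myeloid markers were all detected and summed to 152 and 68.6 RPKM, mostly Lyz2, against 1.99 to 19.5 RPKM at the later stages, where Lyz2 was at 0 in the 33 h, expanded and plasmablast pairs and Cd68 and Itgam made up most of the sum. The 3 erythroid markers summed to 177 and 133 RPKM in naive cells, mostly Hba-a1, against 0.17 to 1.49 RPKM later. The 5 T-cell markers summed to 1.61 and 1.58 RPKM in naive cells and to between 0 and 1.65 later, and the 2 NK-cell markers to 1.42 and 1.38 against 0 to 0.183. The part of these cells in the changes from the naive stage was not tested. In such bulk samples a smaller share of cells with a transcript and less of it per cell cannot be told apart.

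**Figure D1:**
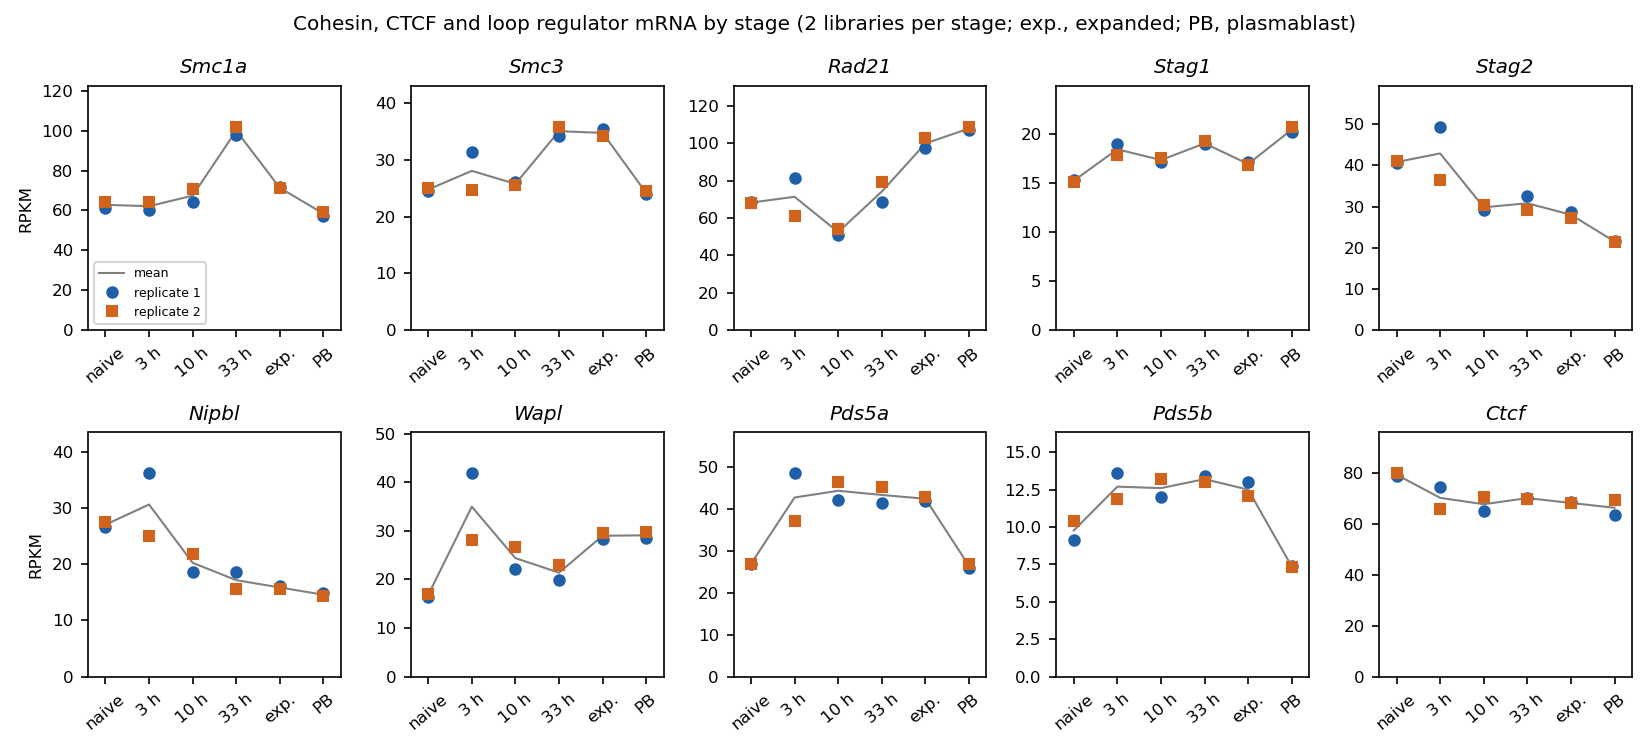
RPKM of the 10 members at the 6 stages, with both replicate libraries as points and their mean as a line, each panel on its own linear axis from 0. Smc1a peaked at 33 h (98.0 and 102 RPKM), Rad21 was highest in plasmablasts, Stag2 and Nipbl were lowest there, Wapl was lowest in naive cells, and Ctcf stayed between 63.4 and 79.9 RPKM.

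The SMC subunits form the arms of the ring, and the position given for each gene is its whole span in mm10. Smc1a (Entrez 24061, chrX:152016428-152061973) stood at 61.4 and 64.3 RPKM in the naive libraries (replicates 1 and 2), 60.2 and 64.0 in the 3 h pair, 64.4 and 70.5 in the 10 h pair, 98.0 and 102 in the 33 h pair, 71.5 and 71.2 in the expanded pair, and 57.4 and 59.4 in the plasmablast pair. The libraries at 33 h lay above all the others, while the naive and 3 h libraries overlapped. For each step 2 tests are reported, edgeR's glmTreat, which asks for a change beyond 1.5-fold, and edgeR's quasi-likelihood F-test, which asks for a change of any size, each adjusted over all 13190 tested genes. Smc1a rose from 10 h to 33 h by the F-test (log2 fold change 0.57 ± 0.079 (SE), adjusted p = 7.9e-05) but not by glmTreat (adjusted p = 0.89). It then fell by 0.49 on the log2 scale into expanded cells (edgeR F-test, adjusted p = 0.00038) and by 0.29 from there to plasmablasts (edgeR F-test, adjusted p = 0.0069, and 0.093 without plasmablast replicate 1).

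Smc3 (Entrez 13006, chr19:53600396-53645831) stood at 24.5 and 25.1 RPKM in the naive libraries, 31.4 and 24.7 in the 3 h pair, 26.1 and 25.6 in the 10 h pair, 34.2 and 35.9 in the 33 h pair, 35.5 and 34.2 in the expanded pair, and 24.0 and 24.5 in the plasmablast pair. It was high at 33 h and in expanded cells, which overlapped, and with the TMM scale back at the level of naive cells in plasmablasts. By the F-test Smc3 rose from 10 h to 33 h (log2 fold change 0.44 ± 0.10, edgeR adjusted p = 0.0033) and fell by 0.52 ± 0.10 on the log2 scale from expanded cells to plasmablasts (edgeR adjusted p = 0.00063). Between naive cells and plasmablasts its log2 fold change was -0.03, with a 95% interval of -0.25 to 0.19. With library size alone as the scale this change was -0.31 (edgeR F-test, adjusted p = 0.0071).

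Rad21 (Entrez 19357, chr15:51962604-51993538), the kleisin that closes the ring and is cut by separase at anaphase, took another course. Its level was 68.5 and 68.0 RPKM in the naive libraries, 81.6 and 61.2 in the 3 h pair, 50.7 and 54.3 in the 10 h pair, 68.7 and 79.6 in the 33 h pair, 97.8 and 103 in the expanded pair, and 107 and 109 in the plasmablast pair. The libraries at 10 h were the lowest and those of plasmablasts the highest, with naive and 3 h libraries overlapping. By the F-test Rad21 rose from 10 h to 33 h (log2 fold change 0.50 ± 0.12, edgeR adjusted p = 0.004) and again into expanded cells (0.44 ± 0.12, edgeR adjusted p = 0.01). The second rise lost its call without 33 h replicate 1 (adjusted p = 0.098) or expanded replicate 2 (adjusted p = 0.077). The fall of 0.44 on the log2 scale from 3 h to 10 h (edgeR F-test, adjusted p = 0.0052) rested on 3 h replicate 1, since without it the change was -0.22 with an adjusted p of 0.063. From naive cells to plasmablasts Rad21 rose by 0.66 on the log2 scale (edgeR F-test, adjusted p = 0.00019), with an adjusted p of 0.18 by glmTreat.

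STAG1 and STAG2 are alternative subunits that bind RAD21 and help to place cohesin on chromatin. From naive cells to plasmablasts the net changes of their mRNAs were opposite in direction. At the consecutive steps up to expanded cells their log2 fold changes had the same sign, and they differed in sign only from expanded cells to plasmablasts. Stag1 (Entrez 20842, chr9:100597709-100958544) stood at 15.3 and 15.1 RPKM in the naive libraries, 18.9 and 17.8 in the 3 h pair, 17.1 and 17.5 in the 10 h pair, 18.9 and 19.2 in the 33 h pair, 17.1 and 16.8 in the expanded pair, and 20.2 and 20.7 in the plasmablast pair. Naive cells were the lowest and plasmablasts the highest. Stag1 was 0.43 ± 0.077 higher in plasmablasts than in naive cells on the log2 scale (edgeR F-test, adjusted p = 0.00021, and 0.077 with library size alone as the scale). Its rise from expanded cells to plasmablasts (log2 fold change 0.27, edgeR F-test, adjusted p = 0.0081) turned to -0.06 with library size alone and lost its call without expanded replicate 2 (adjusted p = 0.061).

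Stag2 (Entrez 20843, chrX:42149297-42277186) stood at 40.6 and 41.1 RPKM in the naive libraries, 49.4 and 36.4 in the 3 h pair, 29.2 and 30.4 in the 10 h pair, 32.5 and 29.1 in the 33 h pair, 28.7 and 27.3 in the expanded pair, and 21.6 and 21.4 in the plasmablast pair. The naive and 3 h libraries lay between 36.4 and 49.4 RPKM, those of 10 h, 33 h and expanded cells between 27.3 and 32.5, and those of plasmablasts lowest of all. Stag2 fell by 0.93 ± 0.12 on the log2 scale from naive cells to plasmablasts (edgeR glmTreat, adjusted p = 0.0035), and stayed called in 21 of 21 alternative fits, with adjusted p from 7.9e-07 to 0.027. Between 3 h and 10 h Stag2 fell by 0.53 (edgeR F-test, adjusted p = 0.0016), and with library size alone as the scale the change was -0.19 (edgeR, adjusted p = 0.14). The fall of 0.38 into plasmablasts (edgeR F-test, adjusted p = 0.014) lost its call without expanded replicate 1 (0.081), plasmablast replicate 1 (0.076) or plasmablast replicate 2 (0.087).

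Nipbl (Entrez 71175, chr15:8289824-8465315), the loader, followed Stag2. Its level was 26.7 and 27.5 RPKM in the naive libraries, 36.3 and 25.1 in the 3 h pair, 18.6 and 21.9 in the 10 h pair, 18.6 and 15.7 in the 33 h pair, 16.2 and 15.7 in the expanded pair, and 14.9 and 14.4 in the plasmablast pair. The 4 libraries of naive and 3 h cells were the 4 highest, and the lowest were those of plasmablasts. Nipbl fell by 0.89 ± 0.15 on the log2 scale from naive cells to plasmablasts (edgeR glmTreat, adjusted p = 0.017). That call was lost with DESeq2's Wald test (adjusted p = 0.13), without naive replicate 2 (edgeR, 0.054) and without plasmablast replicate 2 (edgeR, 0.057). The step from 3 h to 10 h was the only one called for Nipbl by the F-test among consecutive stages (log2 fold change -0.60 ± 0.14, edgeR adjusted p = 0.0031). Over the 12 libraries Pearson's r between log2 RPKM of Stag2 and Nipbl was 0.94, and these points share their libraries and scaling factors.

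Wapl (Entrez 218914, chr14:34672379-34747983), the release factor, was the single member to pass the 1.5-fold test in the first 3 h. Its level was 16.4 and 17.1 RPKM in the naive libraries, 41.9 and 28.2 in the 3 h pair, 22.2 and 26.6 in the 10 h pair, 19.9 and 22.9 in the 33 h pair, 28.4 and 29.6 in the expanded pair, and 28.5 and 29.7 in the plasmablast pair. Every activated library was above both naive libraries, and the 3 h replicates lay far apart. Wapl rose by 1.06 ± 0.15 on the log2 scale from naive cells to 3 h (edgeR glmTreat, adjusted p = 0.0029). Without 3 h replicate 1 the log2 fold change was 0.75 and the adjusted p 0.056, and with each of the 21 other alternatives the call was kept. By the F-test Wapl then fell by 0.52 on the log2 scale to 10 h (edgeR adjusted p = 0.0098), and rose by 0.44 from 33 h to expanded cells (edgeR adjusted p = 0.037). Neither step was stable in edgeR. The fall lost its call without 3 h replicate 1 (adjusted p = 0.13) or 10 h replicate 1 (0.095), with library size alone and with only the 4 libraries compared, and the rise lost its call without 33 h replicate 1 (0.22) or any 1 of the naive and expanded libraries (edgeR adjusted p between 0.054 and 0.15). In plasmablasts Wapl stood 0.80 ± 0.15 above naive cells (edgeR F-test, adjusted p = 0.00042, and 0.059 by glmTreat).

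PDS5A and PDS5B bind the ring beside WAPL and take part both in release and in the protection of acetylated cohesin. Pds5a (Entrez 71521, chr5:65605719-65698236) stood at 26.9 and 26.8 RPKM in the naive libraries, 48.5 and 37.0 in the 3 h pair, 42.0 and 46.5 in the 10 h pair, 41.4 and 45.2 in the 33 h pair, 41.9 and 42.9 in the expanded pair, and 25.9 and 26.8 in the plasmablast pair. Pds5b (Entrez 100710, chr5:150673713-150810669) stood at 9.16 and 10.4 RPKM in the naive libraries, 13.6 and 11.9 in the 3 h pair, 12.0 and 13.2 in the 10 h pair, 13.4 and 13.0 in the 33 h pair, 13.0 and 12.1 in the expanded pair, and 7.37 and 7.34 in the plasmablast pair. With the TMM scale both were on a plateau from 3 h to expanded cells and low at either end, and Pds5b in plasmablasts lay below its naive level. With library size alone both rose from 3 h to 10 h, Pds5a by 0.39 on the log2 scale (edgeR F-test, adjusted p = 0.0044) and Pds5b by 0.32 (edgeR F-test, adjusted p = 0.0082). Pds5a rose from naive cells to 3 h (log2 fold change 0.67 ± 0.11, edgeR F-test, adjusted p = 0.00015), as did Pds5b (0.38 ± 0.098, edgeR F-test, adjusted p = 0.0036, and 0.052 without naive replicate 1).

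Both PDS5 genes fell into plasmablasts. Pds5b fell by 0.77 ± 0.099 on the log2 scale (edgeR glmTreat, adjusted p = 0.046), a call at the threshold that was kept in 11 of 22 alternatives, with adjusted p between 8.5e-05 and 0.61, and lost without either expanded or either plasmablast replicate. Pds5a fell by 0.69 ± 0.11 (edgeR F-test, adjusted p = 0.00018), with an adjusted p of 0.21 by glmTreat. Pearson's r between the log2 RPKM of Pds5a and Pds5b was 0.91 over the 12 libraries, as a description.

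Ctcf (Entrez 13018, chr8:105636474-105682922) was the member that varied least with the TMM scale. Its level was 78.7 and 79.9 RPKM in the naive libraries, 74.5 and 65.8 in the 3 h pair, 65.1 and 70.4 in the 10 h pair, 70.3 and 69.9 in the 33 h pair, 68.4 and 68.0 in the expanded pair, and 63.4 and 69.3 in the plasmablast pair. The naive libraries were the highest, and from 3 h on the libraries overlapped from stage to stage except between 33 h and expanded cells. The stage means spanned 0.26 on the log2 scale, against a median of 0.80 for the 10 members and 1.63 for all tested genes. For the 7159 tested genes with a mean log2 CPM of at least 4 the median was 1.42. Ctcf was 0.26 lower in plasmablasts than in naive cells (edgeR F-test, adjusted p = 0.015, and 0.071 without naive replicate 2 or 0.14 without plasmablast replicate 1). At the steps between consecutive stages its log2 fold changes were between -0.18 and 0.05, and none passed either test. With library size alone its stage levels spanned 0.53, more than those of Stag1 (0.39), and the F-test called it at 3 of these steps.

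**Figure D2:**
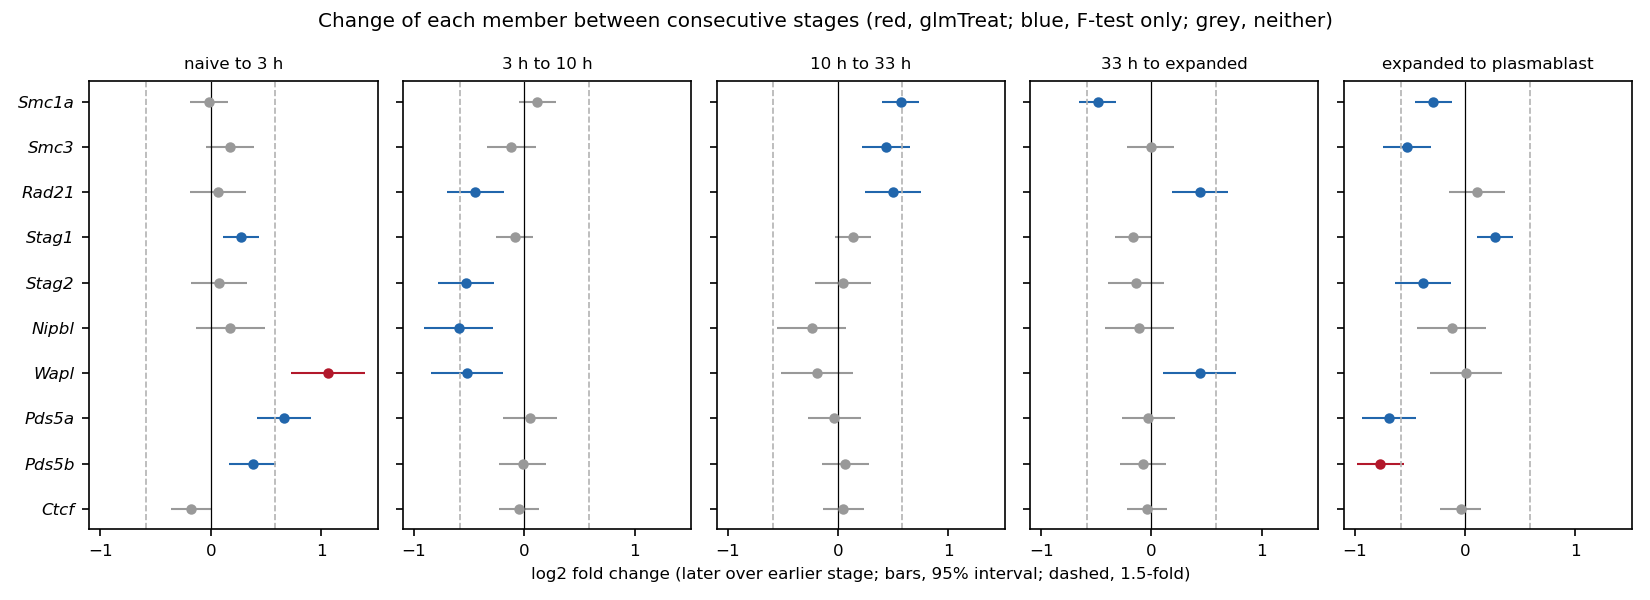
Log2 fold change of each member between consecutive stages (later over earlier), with 95% intervals from edgeR, and dashed lines at 1.5-fold. Wapl at naive to 3 h (1.06) and Pds5b at expanded to plasmablast (-0.77) are the calls by glmTreat (red), and the calls by the F-test alone (blue) include Smc1a, Smc3 and Rad21 at 10 h to 33 h.

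Counts over the members are given beside the share over all tested genes. With only 10 members, the counts at the consecutive steps from 10 h on are near that share by either test. They are no result about the members as a set. From naive cells to 3 h, 1 of 10 was called by glmTreat, where 45.0% of all tested genes were, and 4 of 10 (Wapl, Pds5a, Pds5b and Stag1, all up) by the F-test, where 70.8% of all were. With library size alone as the scale Stag1 (log2 fold change 0.06) and Pds5b (0.17) lost this call and Ctcf (-0.39) and Smc1a (-0.23) fell (edgeR adjusted p of 0.00056 and 0.024), so that 2 were up and 2 down, and Stag1 also lost it with only the 4 libraries compared (0.081). From 3 h to 10 h glmTreat called 0 of 10 members, against 30.5% of all tested genes, and 0 had an unadjusted p under 0.05, while the F-test called 4 (Rad21, Stag2, Nipbl and Wapl, all down), against 62.1% of all. The direction of this step depended on the scale. All 4 falls lost their call when libraries were scaled by their size alone (edgeR adjusted p between 0.11 and 0.41), and the 6 other members (Smc1a, Smc3, Stag1, Pds5a, Pds5b and Ctcf) then rose, by 0.22 to 0.45 on the log2 scale. From 10 h to 33 h glmTreat again called 0 of 10, against 14.4%, with 0 at an unadjusted p under 0.05, and the F-test called the 3 ring genes Smc1a, Smc3 and Rad21, all up, against 45.3% of all. These 3 calls were kept in every alternative fit that held the gene.

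From 33 h to expanded cells glmTreat called 0 of 10 members, against 10.5% of all genes, with 0 at an unadjusted p under 0.05, and the F-test called Rad21 and Wapl up and Smc1a down, against 39.4%. From expanded cells to plasmablasts glmTreat called 1 of 10 (Pds5b, down), against 26.1%, and the F-test 6 (Stag1 up, and Smc1a, Smc3, Stag2, Pds5a and Pds5b down), against 56.9%. With library size alone the F-test gave 0 up and 7 down here, with Stag1 lost and Ctcf (-0.37) and Nipbl (-0.45) added. DESeq2's Wald test against 1.5-fold called 0 members at each of the steps from 3 h to plasmablasts.

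Set against naive cells, at 33 h glmTreat called 0 of 10 members, against 42.9% of all tested genes, with 0 at an unadjusted p under 0.05 and 0 called by DESeq2's Wald test, and the F-test called 7, against 70.9%. The 5 that rose were Smc1a, Smc3, Stag1, Pds5a and Pds5b, and the 2 that fell were Stag2 and Nipbl, of which Stag2 lost its call without 33 h replicate 2. In plasmablasts glmTreat called 2 of 10 (Stag2 and Nipbl, both down), against 49.8%, and the F-test 7, against 73.8%, with Rad21, Stag1 and Wapl up and Ctcf, Stag2, Nipbl and Pds5b down. With library size alone these 3 up and 4 down became 2 up and 7 down, with Stag1 lost and Smc1a (-0.38), Smc3 (-0.31) and Pds5a (-0.30) added. Both comparisons share the naive libraries, which held the myeloid and erythroid RNA given above. Over all 6 stages together the F-test called 9 of 10 members, against 96.6% of all genes, and the one left out was Ctcf (edgeR adjusted p = 0.099). In alternatives chosen after seeing the data, the edgeR adjusted p of Ctcf was 0.0064 without the 3 h stage, when all 10 were called, and 0.88 without the naive stage.

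Ratios of a pair of members within each library do not depend on how libraries are scaled. Of the 6 ratios set up, the ratio of Stag1 to Stag2 was 0.377 and 0.368 in the naive libraries, 0.383 and 0.489 in the 3 h pair, 0.585 and 0.577 in the 10 h pair, 0.581 and 0.657 in the 33 h pair, 0.596 and 0.614 in the expanded pair, and 0.936 and 0.968 in the plasmablast pair. Both plasmablast libraries lay above all others, close to equal levels of the paralogues per length, and both naive libraries below all others. The difference between stages was larger than that between replicates (exact permutation test over all 10395 ways to pair the 12 libraries, p = 0.0011, adjusted over the 6 ratios 0.0031).

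The ratio of Wapl to Nipbl, release factor to loader, was 0.615 and 0.624 in the naive libraries, 1.15 and 1.12 in the 3 h pair, 1.19 and 1.21 in the 10 h pair, 1.07 and 1.46 in the 33 h pair, 1.76 and 1.88 in the expanded pair, and 1.92 and 2.06 in the plasmablast pair. Nipbl was above Wapl per length in both naive libraries and below it in all 10 activated libraries. This ratio spanned 3.21-fold between stage means (exact permutation test, adjusted p = 0.0051), and without the naive stage, chosen after seeing the data, the adjusted p was 0.056.

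The ratio of Ctcf to Rad21 was 1.15 and 1.17 in the naive libraries, 0.913 and 1.07 in the 3 h pair, 1.28 and 1.30 in the 10 h pair, 1.02 and 0.878 in the 33 h pair, 0.699 and 0.661 in the expanded pair, and 0.593 and 0.633 in the plasmablast pair. It was lower in the 4 libraries of day 4 than in the other 8 (exact permutation test over the stages, adjusted p = 0.0031). The ratio of Rad21 to Smc3 went from 1.94 and 2.12 at 10 h to 4.46 and 4.47 in plasmablasts, with naive cells at 2.80 and 2.71 (exact permutation test, adjusted p = 0.0031). Both plasmablast libraries lay above all others.

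For the other ratios no difference between stages was shown. Pds5a to Pds5b lay between 2.59 and 3.65 in all libraries (exact permutation test, adjusted p = 0.09), and Smc1a to Smc3 between 1.92 and 2.86 (adjusted p = 0.13 by the exact permutation test). Both depended on the 3 h stage, and had adjusted p of 0.035 and 0.01 in the exact permutation test without it, an alternative chosen after seeing the data. The SD of the log2 ratio at 3 h was 0.31 for Smc1a to Smc3, the largest of its stages. For Pds5a to Pds5b it was 0.14, close to the 0.13 of naive cells.

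**Figure D3:**
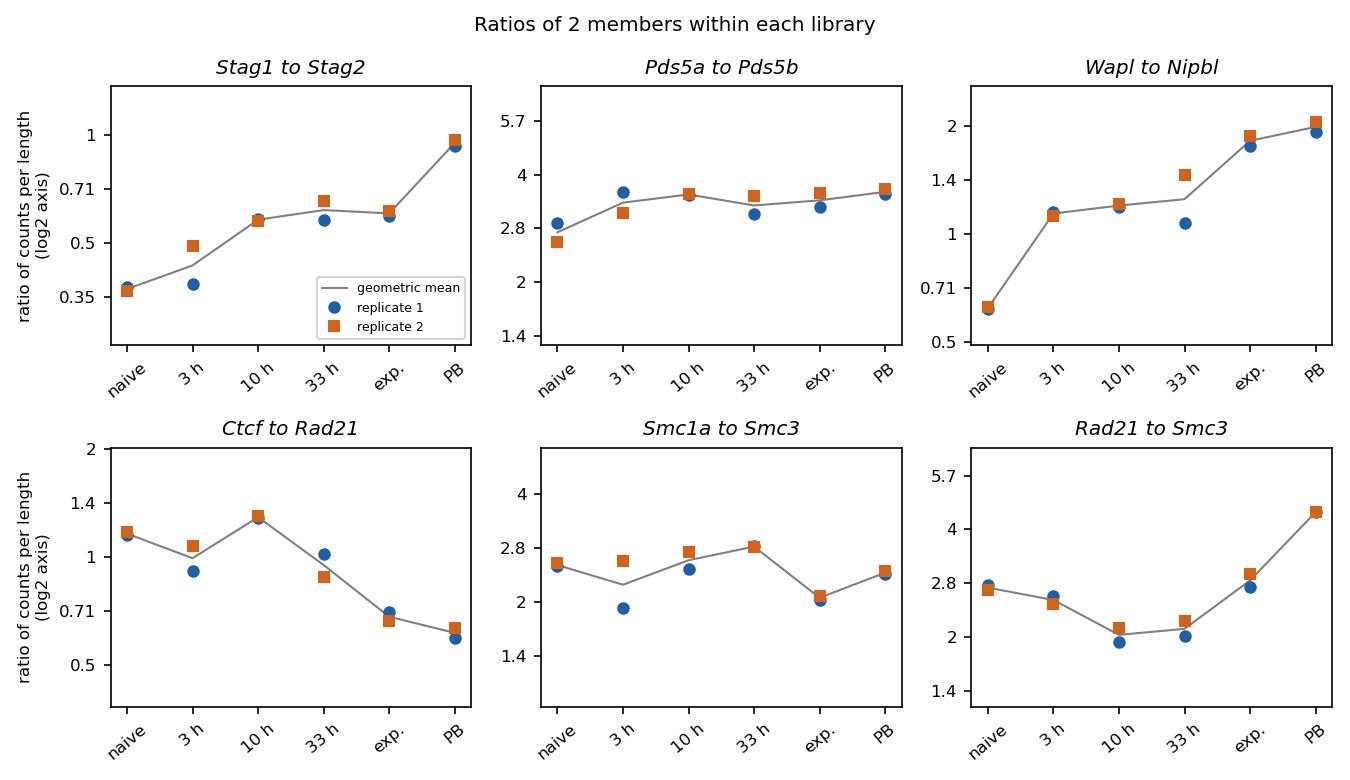
Ratios of counts per length for 6 pairs of members within each library by stage, on log2 axes that span the same number of doublings, with replicates as points and their geometric mean as a line. Stag1 to Stag2 rose from 0.372 in naive cells to 0.952 in plasmablasts and Wapl to Nipbl from 0.62 to 1.99, while Pds5a to Pds5b stayed between 2.76 and 3.58.

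Genes that act on cohesin only when chromosomes are replicated and segregated changed far more at 10 h to 33 h, before the first division. Of 9 genes of mitotic cohesin control, 8 rose by glmTreat, as did 10.0% of all tested genes, with a median log2 fold change of 3.37 over the 9, against -0.02 for all tested genes and 0.06 for the members. They included Plk1 (5.07), a kinase of mitotic entry, Bub1 (4.35), a checkpoint kinase, Espl1 (4.22), the separase that cuts RAD21, and Aurkb (4.00). The 33 h replicates differed here, with Plk1 at 45.1 and 97.9 RPKM. The 9 genes summed to 217 and 307 RPKM at 33 h, against 27.2 and 23.4 at 10 h. The gene not called was Pttg1, which encodes securin, at -0.08, named after its value was seen. Of 7 genes of cohesion at the replication fork, 5 rose, led by Dscc1 (2.78) and Chtf18 (2.16), subunits of a clamp loader.

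Esco2, which acetylates SMC3 in S phase, rose from 0.973 and 0.569 RPKM at 10 h to 14.3 and 14.2 at 33 h (log2 fold change 4.19 ± 0.21, edgeR glmTreat, adjusted p = 2e-08). The other 3 genes of the loading and acetylation cycle did not pass glmTreat at this step, with log2 fold changes of -0.57 for Mau2, the partner of NIPBL, -0.48 for Esco1, and -0.10 for Hdac8, the deacetylase of SMC3. Cdca5, which encodes sororin, the factor that holds off WAPL, went from 4.48 and 3.64 RPKM to 35.7 and 38.2, and was also named after its values were seen.

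At this step glmTreat called 10.0% of all tested genes up and 14.4% in either direction. The condensins, SMC complexes that compact mitotic chromosomes, rose in 7 of 8 genes (median 2.19), with Ncapg at 4.32. The SMC5/6 complex had 1 of 6 (Nsmce1, 1.09). The other architectural DNA-binding factors had 0 of 9, with 0 at an unadjusted p under 0.05 and a median of -0.17. Vezf1 at -0.61 and Patz1 at 0.47 lay farthest from 0. With so few genes these last counts, 1 of 6 and 0 of 9, are near the share over all genes. All 8 proliferation genes rose (median 3.88). In plasmablasts against naive cells, 6 of the 9 architectural factors fell by glmTreat, against 23.3% of all tested genes (median -0.84), with Vezf1 at -1.89, Ldb1 at -1.42, Patz1 at -1.23 and Adnp at -0.91, and 0 rose. These lists were named with results of these data known, and their counts are a description.

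**Figure D4:**
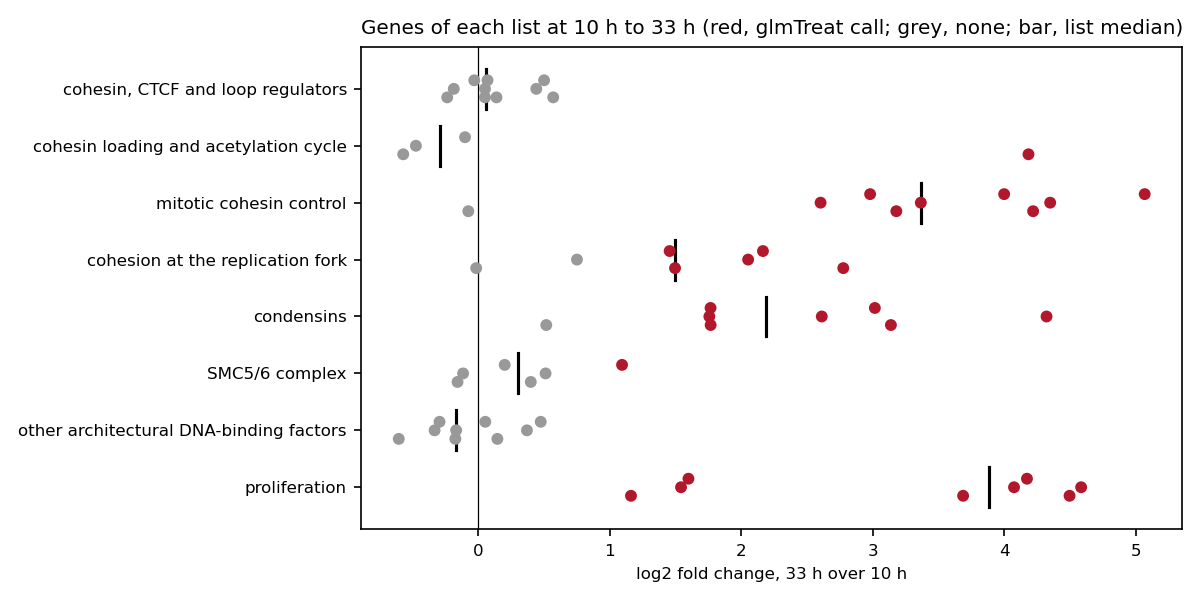
Log2 fold change from 10 h to 33 h of each tested gene of the members and of 7 other lists, with calls by glmTreat in red and the list median as a bar. The 10 members lie between -0.24 and 0.57 with none called by glmTreat, while 8 of 9 genes of mitotic cohesin control lie at 2.60 or above.

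The germline paralogues of the ring and of CTCF were at or near 0 throughout. Rad21l was at 0 counts in all 12 libraries, which allows up to 3 counts, or 0.0495 to 0.13 CPM, per library, and Smc1b and Ctcfl reached at most 4 and 2 counts. Rec8 and Stag3 were tested and reached at most 0.754 and 0.283 RPKM in any library.

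Promoter sequences from RefSeq (GRCm38.p6, the build of the files' mm10) were found for 7 of the 10 members, all but Rad21, Stag2 and Nipbl. In the 250 bases before the start site these held between 16 and 44 CpG dinucleotides, against a median of 6 over 27025 promoters, and 6 of the 7 lay above the 75th percentile of 16. For 3 genes the window lay wholly outside the annotated gene, and they are shown because Smc1a and Smc3 are the SMC pair of the ring that rose at 33 h and Pds5a fell most in plasmablasts among members with such a window. Capitals mark matches to the letters searched on both strands. These were GGGCGG for the GC box, CCAAT for the CCAAT box, TATAAA for the TATA box, CACGTG for the E-box, CGGAAG for ETS factors, TTGGCGC as well as TTCCCGC for E2F factors, and AAGATGG for YY1.
Smc1a, chrX:152016178-152016427, plus strand: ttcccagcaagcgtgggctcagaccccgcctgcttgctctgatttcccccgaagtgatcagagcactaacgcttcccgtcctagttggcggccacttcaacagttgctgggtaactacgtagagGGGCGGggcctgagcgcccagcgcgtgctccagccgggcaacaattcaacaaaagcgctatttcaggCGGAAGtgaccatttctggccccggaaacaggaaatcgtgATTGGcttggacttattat
Smc3, chr19:53600146-53600395, plus strand: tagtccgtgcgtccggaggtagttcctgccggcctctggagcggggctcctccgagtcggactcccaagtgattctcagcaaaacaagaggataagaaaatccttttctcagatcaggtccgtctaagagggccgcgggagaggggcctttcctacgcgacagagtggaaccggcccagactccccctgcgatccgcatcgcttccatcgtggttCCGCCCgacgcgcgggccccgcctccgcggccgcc
Pds5a, chr5:65698237-65698486, minus strand: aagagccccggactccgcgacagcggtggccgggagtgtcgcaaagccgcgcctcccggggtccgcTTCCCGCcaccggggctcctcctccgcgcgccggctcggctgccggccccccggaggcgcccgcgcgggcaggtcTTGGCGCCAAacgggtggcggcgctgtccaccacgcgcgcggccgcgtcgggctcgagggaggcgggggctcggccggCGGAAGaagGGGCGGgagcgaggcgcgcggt
The window of Pds5a held the E2F letters TTGGCGC on both strands, the matches overlapping by 4 bases, and TTCCCGC once, letters found in 2.05% and 3.84% of all promoters. That of Smc1a held the GC box, the ETS letters and a CCAAT box in reverse, present in 32.9%, 13.8% and 34.5% of promoters, and that of Smc3 held the GC box in reverse. Such matches are letters and not sites known to be bound.

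The genes whose log2 RPKM followed a member most closely over the 12 libraries, leaving out genes whose mean log2 CPM was below 4, are given as a description of likeness. For Rad21 these were Cenpa, which encodes the centromeric histone H3 variant (Pearson's r = 0.98), Mmd (0.96) and Myl4 (0.94), and for Smc1a Ccnd3, a D-type cyclin (0.96), Myg1 (0.93) and Nedd1 (0.92). For Nipbl they were Arid4b (0.99), Chd6 (0.98) and Dyrk1a (0.98), and for Stag2 Il4ra, a chain of the interleukin 4 receptor (0.97), and Cyth1 (0.97). Wapl was closest to Ss18 (0.94), Pds5a to Hnrnpu (0.97), Pds5b to Snrpb2 (0.98), Smc3 to Ptpn12 (0.97), Stag1 to Atp6v1h (0.92) and Ctcf to Pik3r1 (0.95).

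The members could be told apart from other genes at the length of the reads. Of all windows of 81 bases in their GENCODE transcripts, 12 of 5458 of Smc3 were shared with another gene (Gm11204), and 0 of those of the other 9 members. Exons of other genes on the opposite strand covered 7.61% of the exonic bases of Ctcf (Agrp and Gm5914), 1.93% of Pds5a and 0.338% of Stag2, and whether counting used strand is not given in the sources used here, so reads from these stretches cannot be told apart.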

How the data were processed

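The authors prepared TruSeq libraries from polyA RNA, aligned their paired reads of 81 bases with Rsubread (mm10), and used featureCounts with its inbuilt Entrez annotation. The deposited values are raw counts per gene with exon lengths, neither normalized nor filtered, and the series table was identical to the 12 files that hold 1 library each. Symbols and positions came from a RefSeq table of the same build, which matched 25275 of 27179 IDs. Unmatched (1.41% to 2.08% of counts), mitochondrial, ribosomal RNA, variable immunoglobulin and Y chromosome genes were removed after the study's methods. X chromosome genes were kept, unlike in the study, because Smc1a and Stag2 are X-linked.

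All 12 libraries, with total counts from 23026619 to 60585587, entered a one-way layout in edgeR 4.0.16 (R 4.3.3) with TMM, filterByExpr, robust dispersions and the earlier quasi-likelihood method. Stages were compared with glmTreat against 1.5-fold and with the F-test, both with Benjamini-Hochberg adjustment over all genes at 0.05. Ratios were tested with an exact permutation test of the one-way F statistic over the stages, which has no direction and whose smallest p is 9.6e-05. SE is the log2 fold change divided by the root of F. With 2 replicates per stage no group was large enough to test for outliers. The members, lists and rules for naming genes were chosen with earlier results of these data known. Named genes are all members, up to 3 of the genes most like each, and at most 4 per list with the largest change. Some items that these rules would name are not reported here. The steps were tested on simulated data. For 10 h to 33 h, 24 of 47 genes given a 2-fold change were called (51.1%), and 48 of 50 given a 3-fold change. Of 12509 genes given no change, 0 were called. The lack of a call therefore does not show that a member was unchanged. Contact maps (Hi-C) are not part of what was analysed here.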

Additional observations from a re-analysis of the deposited data

How the results depend on the processing

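Tried in place of the settings reported were scaling by DESeq2's size factors or by library size alone, DESeq2 1.42.0's Wald test, no filter or at least 10 counts in every library, removing X chromosome genes too or removing none, dispersions without robust mode, only the 4 libraries compared, a replicate block, and leaving out each library in turn. No call of a member by glmTreat was reversed in sign. Of the calls by the F-test, that of Stag1 from expanded cells to plasmablasts changed sign with library size alone (0.27 to -0.06) and was then not called. Of 1596 alternative values, 1541 kept their side of the threshold, 15 lost a call and 40 gained one. These values included the F-test in place of glmTreat. Most of the values kept were of comparisons that glmTreat had not called to begin with. How often each call by glmTreat was lost is given with its gene above. Of 34 calls by the F-test, 20 were kept in every alternative fit. The number of members past 1.5-fold from expanded cells to plasmablasts, 1, was 0 with DESeq2's size factors, at least 10 counts, no genes removed or DESeq2's Wald test, 3 with library size alone, and between 0 and 1 when libraries were left out. From naive cells to 33 h it was 2 with library size alone instead of 0. From naive cells to plasmablasts it was 1 instead of 2 with X chromosome genes removed, which takes out Stag2, and with DESeq2's Wald test, 3 with no filter or only the 4 libraries compared (Wapl added), and between 1 and 3 with libraries left out. Leaving out libraries gave between 0 and 2 from naive cells to 3 h and between 0 and 1 from 3 h to 10 h. The F-test called 4, 4, 3, 3 and 6 members at the consecutive steps and 7 and 7 against naive cells. With library size alone these counts were 4, 6, 3, 3 and 7, then 8 and 9, with the changes of members and direction given above. With libraries left out they ran from 3 to 7, 3 to 5, 3 to 4, 1 to 4 and 4 to 6, then 6 to 9 and 6 to 7, with 7 at naive to 3 h without 3 h replicate 2, and 1 at 33 h to expanded without 33 h replicate 1 or expanded replicate 2. With libraries left out the adjusted p of the ratio of Smc1a to Smc3 ran from 0.0029 to 0.22, and it crossed the threshold without 3 h replicate 1 (0.01) or 3 h replicate 2 (0.0029). With the naive stage left out the ratio of Wapl to Nipbl had an adjusted p of 0.056, and with the 3 h stage left out those of Pds5a to Pds5b and Smc1a to Smc3 had 0.035 and 0.01, alternatives chosen after seeing the data. Why these results moved was not tested.

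The labels do not say whether libraries with the same replicate number came from the same mice or cultures. The correlation of replicate differences between stages ran from -0.14 to 0.095 over 15 pairs of stages, and with the replicate block the number of members past 1.5-fold from expanded cells to plasmablasts was 0, with no other count of members changed.

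Library size alone moved the median log2 fold change of all genes by over 0.1, to -0.24 from naive cells to 3 h, 0.35 from 3 h to 10 h, -0.38 from expanded cells to plasmablasts and -0.25 from naive cells to plasmablasts. The share of calls that were up changed there from 46.3% to 36%, 56.3% to 77.5%, 53.5% to 29% and 53.3% to 41.8%. Of 70 fold changes of members, 16 changed sign with library size or DESeq2's size factors, of which 1 was a call of the F-test (Stag1, expanded cells to plasmablasts). Each member had at least 1304 counts in every library, and there were 2 replicates per stage.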
